A study of Canis lupus familiaris with 13 samples.

Results

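The insulin-stimulated muscle biopsy numbered 1 was compared with the basal biopsy, numbered 0, of the same dog, across all genes measured. The comparison held the 6 libraries, of 13 in the series, that carried sample number 0 or 1 in the 3 dogs with a basal library (dogs 2, 3 and 4). They were chosen by their labels and by no measured value. Each was made from total RNA of a biceps femoris biopsy, a muscle of the thigh. All the dogs were labelled wild type and 9 to 10 months old, and no other allele or agent was named for either group. The basal group was sample 0, labelled as basal insulin (n = 3), and the stimulated group was sample 1, labelled as insulin stimulated (n = 3). The labels gave no dose, route or duration of insulin, and did not say whether the sample number stands for a time. The stimulation and anything else that differed between a dog's samples 0 and 1 cannot be told apart. Dog 1 had a sample 1 library (n = 1) but no basal library and was left out of the pairs.

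Insulin binds its receptor on the muscle fibre and, through insulin receptor substrates, phosphatidylinositol 3-kinase and the kinase AKT, brings the glucose transporter GLUT4 to the cell surface and turns on glycogen synthesis. AKT also keeps FoxO transcription factors out of the nucleus, and FoxO factors drive genes of protein breakdown and of fat use in fasting muscle. Glucose entering the cell acts on another group of genes through the sugar-sensing factor MondoA.

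Totals in the 6 libraries ranged from 45200416 to 72052490 counts, and 13803 of 30951 genes passed the filter on low counts. Levels are in CPM, which are counts scaled to 1e+06 per library, with the total adjusted for composition. ACTA1, the skeletal muscle actin, took 10.4% to 13.7% of the counts, and the 5 muscle fibre markers summed to 194030 to 265740 CPM in sample 0 and 212555 to 311090 in sample 1, so the libraries held the labelled tissue. One library stood apart in its other cell types: the 10 fibroblast markers summed to 3617 CPM in the basal library of dog 3 and to 468 and 1069 CPM in the other basal libraries, against 634 to 1376 CPM in sample 1. All the fibroblast markers were detected in the 6 libraries, and their part in the results below was not tested. In these biopsies of mixed cells, fewer cells of a type and less RNA per cell cannot be told apart. Nothing in the labels says how the libraries were batched.

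The comparison asks which transcripts differ between the stimulated and the basal biopsy. Only 5 genes passed, 0.0362% of those tested: 3 fell (0.0217%) and 2 rose (0.0145%). The genes that fell were TRIM63, a ubiquitin ligase that marks muscle proteins for breakdown, TXNIP, which restrains glucose uptake, and ZFAND5, a zinc finger protein that stimulates the proteasome. Those that rose were SLC25A25, a calcium-regulated carrier of ATP-Mg and phosphate in the inner mitochondrial membrane, and SLC35E4, a member of the nucleotide sugar transporter family whose cargo is not established. Genes were called at an adjusted p under 0.05 in edgeR's quasi-likelihood test with Benjamini-Hochberg adjustment over all genes tested, in a fit with the dog as a block. The fit took the sample 2 libraries of the same dogs as well, which share in the estimate of spread.

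TRIM63 (ENSCAFG00000012671) stood at 229, 134 and 192 CPM in the basal libraries of dogs 2, 3 and 4, and at 57.5, 26.6 and 29.5 CPM in their sample 1 libraries. Every basal library was above every sample 1 library, and dog 2 was highest in both. TRIM63 fell 5.02-fold in the fit, a log2 fold change of -2.33 ± 0.18 (SE; edgeR adjusted p = 0.00662). TXNIP (ENSCAFG00000011405) stood at 382, 546 and 446 CPM in the basal libraries and at 137, 182 and 107 CPM in sample 1. The groups again did not overlap, and dog 3 was highest in both. TXNIP fell 3.27-fold (log2 fold change -1.71 ± 0.15 SE, edgeR adjusted p = 0.0100). ZFAND5 (ENSCAFG00000001811) stood at 394, 239 and 305 CPM and then at 164, 122 and 148 CPM. The order of the dogs was the same in both samples, and the change was the smallest of the 5, a 2.13-fold fall (log2 fold change -1.09 ± 0.12 SE, edgeR adjusted p = 0.0303).

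SLC25A25 (ENSCAFG00000020091) stood at 16.04, 9.50 and 12.8 CPM in the basal libraries of dogs 2, 3 and 4 and at 72.3, 47.9 and 45.5 CPM in sample 1. The groups did not overlap, and the gene rose 4.34-fold (log2 fold change 2.12 ± 0.21 SE, edgeR adjusted p = 0.0183). SLC35E4 (ENSCAFG00000012834) stood at 4.04, 2.17 and 4.21 CPM in sample 0 and 14.5, 9.58 and 19.3 CPM in sample 1. It too was higher in every sample 1 library than in any basal one, and rose 4.13-fold (log2 fold change 2.04 ± 0.20 SE, edgeR adjusted p = 0.0183). Per dog, the log2 differences of SLC35E4 lay between 1.83 and 2.18 and those of SLC25A25 between 1.83 and 2.33.

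How firmly the 5 calls stood depended on the libraries. TRIM63 passed without any 1 of the 3 dogs (highest edgeR adjusted p = 0.0384) and lost the call among the single libraries only without dog 3 sample 1 (adjusted p = 0.134). TXNIP lost it without sample 1 of dog 3 or of dog 4 (edgeR adjusted p = 0.160 and 0.112) and without any 1 dog (0.0615 to 0.103). SLC25A25 and SLC35E4 lost it without any 1 dog (edgeR adjusted p 0.0561 to 0.103 and 0.0565 to 0.210), without the sample 1 library of dog 2, 3 or 4 (0.0916 to 0.160 and 0.0968 to 0.161) and without dog 4 sample 0 (0.1002 for both). ZFAND5 kept the call only without dog 3 sample 0 or dog 4 sample 2; without any other single library its edgeR adjusted p was 0.0877 to 0.414, and without 1 dog 0.221 to 0.363. With all 13 libraries in the fit none of the 5 passed (edgeR adjusted p from 0.0546 for SLC35E4 to 0.384 for SLC25A25). Without the replicate block none passed either (edgeR adjusted p 0.0718 for SLC25A25, 0.182 for TRIM63 and TXNIP, 0.506 for SLC35E4 and 0.549 for ZFAND5). All 5 kept their direction in each of these fits.

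**Figure D1:**
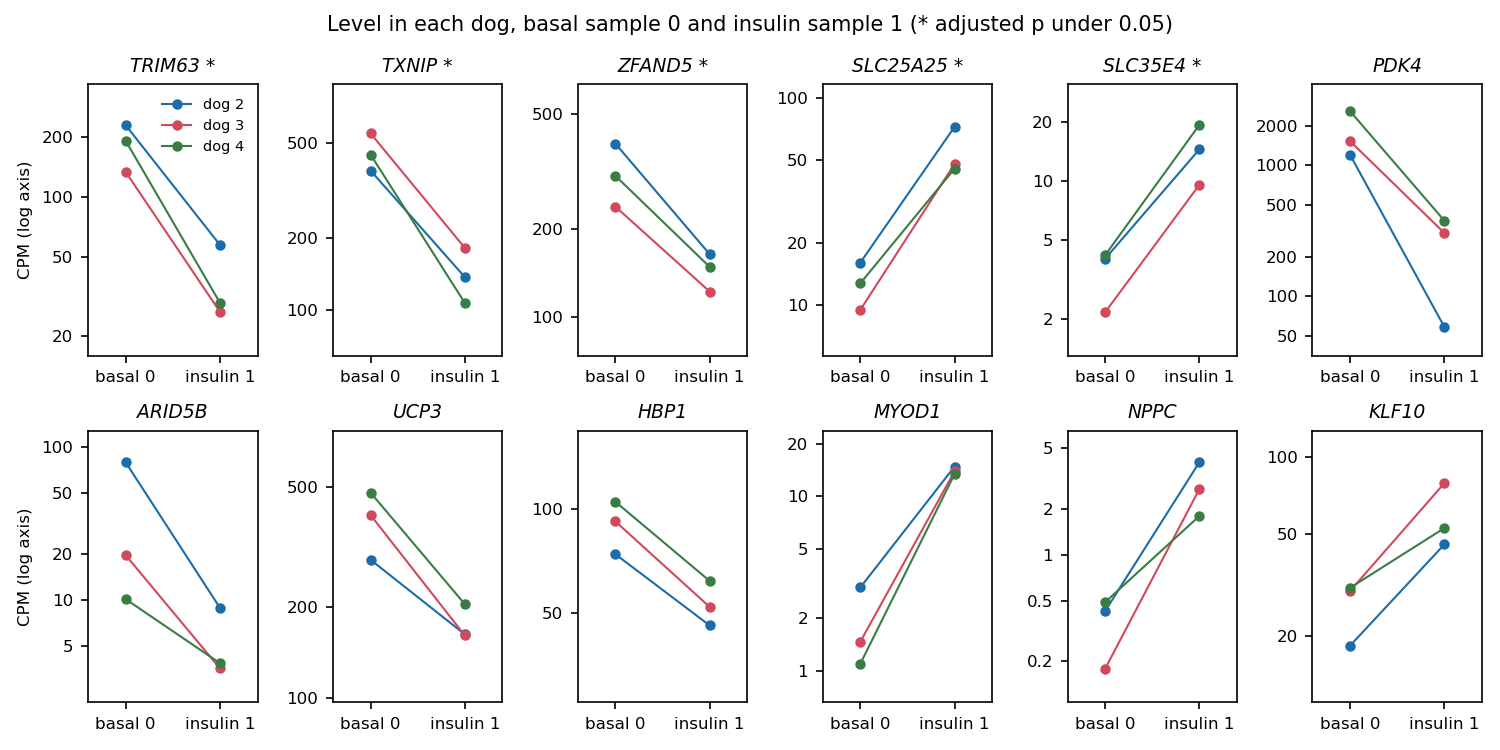
Level of 12 genes in CPM (log axis, its own range in each panel) in the basal sample 0 and the insulin sample 1 of dogs 2, 3 and 4, with 1 line per dog. The 5 genes with a star had an adjusted p under 0.05; the lines of PDK4 do not run parallel, from 1203 to 58.5 CPM in dog 2 and from 1532 to 305 CPM in dog 3.

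The unpaired sample 1 library of dog 1 was not part of these fits. Scaled together with all 13 libraries, it held 28.7 CPM of TRIM63, 107 of TXNIP and 169 of ZFAND5. The basal libraries of the other dogs on the same scale held 132 to 227, 378 to 540 and 236 to 390 CPM, so dog 1 lay below each range. For the genes that rose, dog 1 held 21.9 CPM of SLC25A25 and 5.58 CPM of SLC35E4, above the basal ranges of 9.40 to 15.9 and 2.14 to 4.17 CPM. With no basal biopsy of dog 1 these levels give no change and were not tested.

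Apart from the 5 genes, the naming rule took the genes of lowest p with the same direction in 3 of 3 dogs, 9 lower and 10 higher, none past the threshold (edgeR adjusted p 0.185 to 0.313). With no filter on low counts, a fit that called 30 genes, all of them except PDK4, ARID5B, MYOD1, DTX2 and KCNJ11 passed. Among the lower genes were PDK4 and UCP3, both of fuel use. PDK4, the kinase that switches off pyruvate dehydrogenase and so spares glucose, stood at 1203, 1532 and 2594 CPM in the basal libraries and at 58.5, 305 and 379 CPM in sample 1. The groups lay far apart, but the size of the difference varied from -2.33 in dog 3 to -4.36 in dog 2 on the log2 scale, and the fitted value was -3.27 ± 0.51 (SE; edgeR adjusted p = 0.209). Without dog 2 sample 0 it passed, at -2.50 (edgeR adjusted p = 0.0383), and it passed in DESeq2 (adjusted p = 1.25e-14). In the other fits PDK4 did not pass (edgeR adjusted p 0.05465 to 0.9999). UCP3, an inner mitochondrial membrane protein that is high in fasting muscle, stood at 287, 404 and 479 CPM and then 163, 161 and 205 CPM (log2 fold change -1.13 ± 0.18 SE, edgeR adjusted p = 0.187). Its groups did not overlap.

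The other lower genes included regulators of transcription and signalling. ARID5B, a DNA-binding protein of chromatin, stood at 79.0, 19.6 and 10.2 CPM and then at 8.92, 3.59 and 3.88 CPM. The lowest basal library was just above the highest sample 1 library (log2 fold change -2.42 ± 0.38 SE, edgeR adjusted p = 0.204). ARID5B passed without dog 4 sample 0 (-2.87, edgeR adjusted p = 0.0194), without dog 4 (0.0384) and in DESeq2 (adjusted p = 4.66e-09). In the other fits ARID5B did not pass (edgeR adjusted p 0.0553 to 0.9999). HBP1, a transcriptional repressor, stood at 74.0, 92.0 and 105 CPM and then at 46.1, 52.2 and 62.0 CPM, a nearly equal difference in each dog (-0.68, -0.82 and -0.76 on the log2 scale). DUSP10, a phosphatase of the stress-activated kinases p38 and JNK, was high in dog 2 in both samples, 123 and 58.4 CPM, against 26.2 to 26.4 and 14.9 to 16.6 CPM in the other dogs. The rest had log2 fold changes from -0.82 to -0.99: USP54, the kinase anchor AKAP13, the selenium carrier SELENOP and UGDH, which makes UDP-glucuronate. In 10 of the 12 lower genes, all except USP54 and DUSP10, the groups did not overlap. Over all genes tested 3.11% lay apart in this direction and 2.63% in the other, and these genes were picked for low p, so nothing is read from that count.

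Among the higher genes MYOD1, the transcription factor that commits cells to the muscle lineage, stood at 3.00, 1.46 and 1.09 CPM in the basal libraries and at 14.8, 13.9 and 13.4 CPM in sample 1. Its sample 1 levels were nearly equal while its basal levels were not (log2 fold change 2.94 ± 0.44 SE, edgeR adjusted p = 0.187). It passed with the 6 libraries alone (edgeR adjusted p = 0.0389), without sample 0 or sample 2 of dog 2 (0.0220 and 0.0255) and without dog 2 (0.0208). In the other edgeR fits MYOD1 did not pass (adjusted p 0.0553 to 0.971). NPPC, which encodes C-type natriuretic peptide, stood at 0.428, 0.179 and 0.489 CPM and then at 4.04, 2.70 and 1.79 CPM (2.95 ± 0.43 SE, edgeR adjusted p = 0.185). Its basal libraries held 27, 12 and 21 counts. KLF10, a zinc finger repressor, stood at 18.3, 29.9 and 30.8 CPM and then at 45.4, 78.8 and 52.6 CPM (1.17 ± 0.19 SE, edgeR adjusted p = 0.198).

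Several others encode proteins of the fibre membrane and of signalling. KCNJ11, the pore of the ATP-sensitive potassium channel, stood at 6.28, 3.26 and 3.12 CPM and then 12.7, 20.4 and 10.2 CPM. It was among the 17 genes that passed without dog 2 sample 0, as was MID1IP1 (log2 fold changes of 2.26 and 1.51, edgeR adjusted p = 0.0435 and 0.0261). NOS1, the nitric oxide synthase of muscle and nerve, stood at 1.52, 1.88 and 1.79 CPM and then 2.74, 6.69 and 5.43 CPM. The rest had log2 fold changes from 0.77 to 1.80: DTX2, the cell surface proteoglycan SDC4, the retinoic acid receptor RARB, the acyl-CoA thioesterase ACOT11 and the tubulin-binding protein TPPP. In all 12 higher genes the sample 1 libraries lay above the basal ones. In dog 1 sample 1, 11 of the 12 lower genes lay below the basal range of the other dogs, and ARID5B lay inside it. Of the 12 higher genes 8 lay above that range, KLF10, ACOT11 and DTX2 lay inside it, and TPPP lay below it. Of all 13803 genes tested, dog 1 lay below that range in 22.5% and above it in 23.1%.

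**Figure D2:**
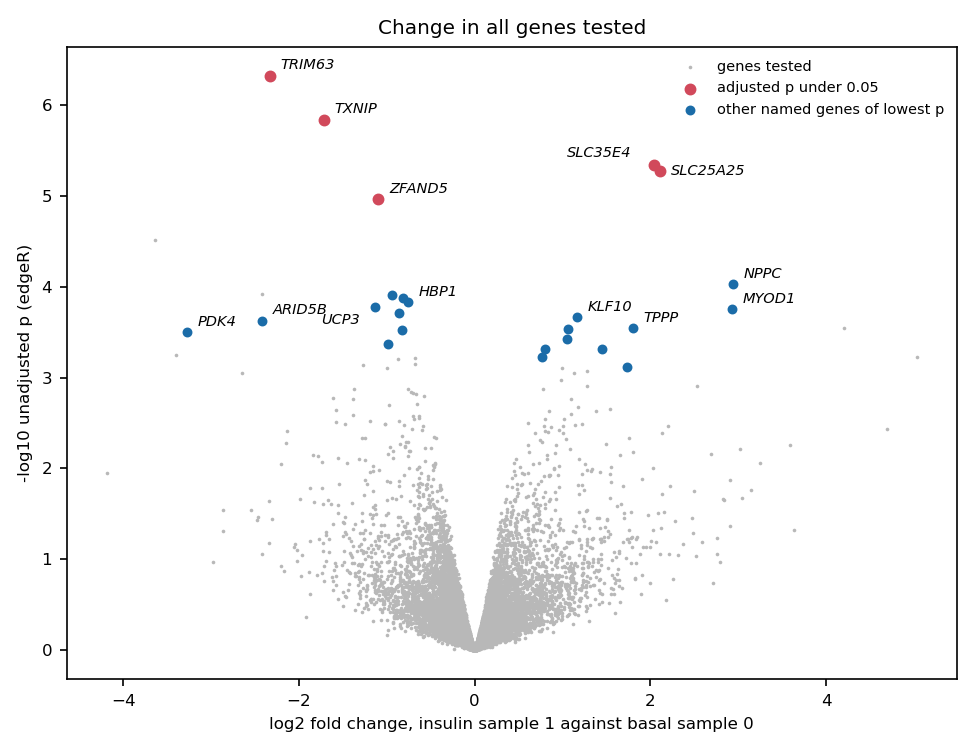
Each point is 1 of the 13803 genes tested, with the fitted log2 fold change of sample 1 against sample 0 on the horizontal axis and -log10 of the unadjusted p on the vertical axis. The 5 red genes passed the threshold; PDK4, at -3.27, lies farther out than any of them but lower on the p axis.

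Across all genes the differences from basal varied between dogs. Their standard deviation over genes was 0.716, 0.711 and 0.770 on the log2 scale in dogs 2, 3 and 4. The median log2 fold change was -0.01, but the scaling for composition holds it near 0, so it does not measure the size of the changes. The median SE was 0.26, and the median 95% confidence interval reached 0.59 to either side, before any adjustment for the number of genes tested. An unadjusted p under 0.05 was found in 541 genes (3.92%), 256 higher and 285 lower, fewer than the 690.2 that evenly spread p-values would give. In 1420 genes (10.3%) the level was higher in 3 of 3 dogs, and in 1496 genes (10.8%) it was lower in all of them. The 50 genes of highest CPM took 57.2% of CPM in sample 0 and 58.1% in sample 1. Their log2 fold changes ran from -0.68 to 0.39, and none was called, or had an unadjusted p under 0.05, in edgeR's test, and DESeq2 called none.

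The differences of 1 dog had little relation to those of another. Over the 13803 genes, the log2 differences of dogs 2 and 3 had a Pearson r of -0.188, those of dogs 2 and 4 of 0.137, and those of dogs 3 and 4 of 0.00239. Genes share libraries and are not independent replicates, so these values describe the libraries and carry no p. Among the 2671 genes with an average log2 CPM of at least 5, r was -0.0539, 0.175 and 0.171. Levels at least 2-fold higher were more frequent than levels at least 2-fold lower in dog 2 (1221 against 524 genes) and dog 4 (1153 against 808), and less frequent in dog 3 (683 against 1181). Only 31 genes were at least 2-fold higher, and 19 at least 2-fold lower, in all of the dogs, and 10 and 5 of them had a symbol and an average log2 CPM of at least 1. The 5 lower ones were NR4A2, PDK4, ARID5B, TRIM63 and TXNIP.

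**Figure D3:**
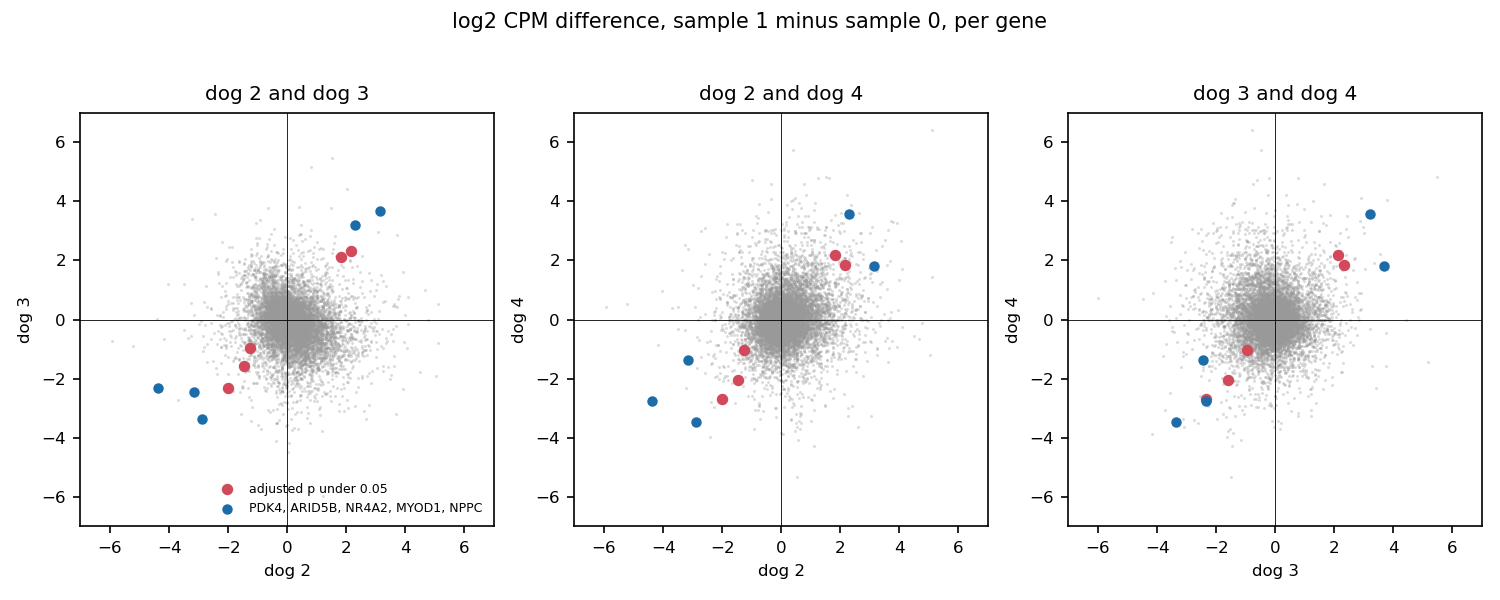
log2 difference in CPM, sample 1 minus sample 0, of each gene tested in 1 dog (horizontal) and another (vertical), for the 3 pairs of dogs. The grey cloud has no common slope (r from -0.188 to 0.137), and the 5 called genes (red) and PDK4, ARID5B, NR4A2, MYOD1 and NPPC (blue, which did not pass) were named for low p or for the same direction in all 3 dogs, so the quadrant they lie in is no result.

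The genes of the pathway are described by lists, with the median log2 fold change over all genes tested (-0.01) as the background. The lists were drawn up with earlier results of these data known, and no list was tested as a whole. Over the 42 lists, only TRIM63, TXNIP and ZFAND5 passed the threshold in edgeR's test, and 0.0362% of all genes did. DESeq2, run as an alternative, called 71 of all genes tested, and its calls are given beside the lists described below. Not every list is described. Of 20 glucocorticoid response genes edgeR called none (6 lower and 2 higher at p under 0.05), and DESeq2 called ANGPTL4, KLF15 and SGK1, all lower. In other lists not described, DESeq2 called DUSP10 and MAP3K13 lower (MAP kinase phosphatases and receptor tyrosine kinase feedback) and GADD45A higher (acetylcholine receptor and denervation). A count of members at p under 0.05 is of unadjusted edgeR values. The medians of glycolysis, ubiquitin ligases, the proteasome, cholesterol synthesis, oxidative phosphorylation and ribosome biogenesis lay between -0.12 and 0.10 under every setting and with any 1 dog or library left out.

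Of 27 FoxO targets 2 fell and none rose (6 lower and 3 higher at p under 0.05; 5 lower and 2 higher by DESeq2), with a median of -0.11 (0.01, -0.36 and -0.37 in dogs 2, 3 and 4). The median was -0.36 without dog 2 and -0.06 without dog 4. The 2 were TRIM63 and TXNIP. FBXO32, the ubiquitin ligase atrogin-1, stood at 62.9, 103 and 144 CPM in the basal libraries and at 55.6, 29.3 and 53.8 CPM in sample 1. Dogs 3 and 4 differed by -1.81 and -1.42 on the log2 scale and dog 2 by -0.18, and the fitted value was -1.26 with a 95% confidence interval from -2.25 to -0.27. GADD45A, a growth arrest gene, went the other way, at 64.1, 37.4 and 69.2 CPM and then 110, 116 and 188 CPM (log2 fold change 1.23 ± 0.37 SE, edgeR adjusted p = 0.905). KLF15, a factor of amino acid and lipid use, had a log2 fold change of -0.97 ± 0.22 (SE; edgeR adjusted p = 0.517) with overlapping groups. G0S2, an inhibitor of fat breakdown that was picked after its values were seen, stood at 39.7, 2.78 and 5.10 CPM and then 115, 124 and 145 CPM (3.60, edgeR adjusted p = 0.711). It was among the genes called without dog 2 and without dog 2 sample 0. Of the 21 ubiquitin ligases and autophagy genes 2 fell, TRIM63 and ZFAND5, as in DESeq2, at a median of -0.09. The 24 proteasome subunits had a median of -0.01 and ranged from -0.14 to 0.16, with 0 called by either tool and 0 at p under 0.05.

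Of 29 genes of insulin signalling 0 were called by edgeR or DESeq2 and 0 had p under 0.05, and the median was -0.02 (-0.15 without dog 3 sample 1 and 0.14 without dog 4). The insulin receptor INSR stood at 4.73, 12.2 and 11.7 CPM and then 5.16, 9.56 and 14.2 CPM, a log2 fold change of 0.00 with a 95% confidence interval from -0.60 to 0.60. IRS2, a receptor substrate, was under 1 CPM in all 6 libraries (log2 fold change -1.57, interval from -3.63 to 0.49). FOXO1 had a log2 fold change of 0.48 (-0.18 to 1.14).

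Of 19 genes of glucose uptake and glycolysis 0 were called by edgeR or DESeq2 and 1 had p under 0.05, on the higher side, and the median was 0.01. SLC2A4, which encodes GLUT4, stood at 224, 148 and 196 CPM and then 321, 150 and 196 CPM. Dog 2 differed most, and the fitted log2 fold change was 0.18 (95% confidence interval -0.14 to 0.51). HK2, the muscle hexokinase, stood at 29.5, 17.2 and 23.5 CPM and then 43.0, 16.3 and 25.7 CPM, also with a higher level mainly in dog 2 (0.20, interval -0.16 to 0.55). SLC2A1, the transporter GLUT1, had a log2 fold change of 0.92 ± 0.32 (SE).

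Glycogen genes had a median of -0.04 (-0.11 without dog 3 sample 0 and 0.07 without dog 2 sample 0) over 17 members, with 0 called by edgeR or DESeq2, and 2 higher and 1 lower at p under 0.05. PPP1R3C and PPP1R3B are subunits that bring protein phosphatase 1 to glycogen. PPP1R3C stood at 172, 44.9 and 41.3 CPM in the basal libraries and at 300, 364 and 318 CPM in sample 1. Dog 2 at basal lay between the other basal libraries and sample 1, and the log2 differences were 0.80, 3.02 and 2.94 (fitted 2.14 ± 0.52 SE, edgeR adjusted p = 0.622). PPP1R3B stood at 163, 73.3 and 123 CPM and then 342, 379 and 336 CPM (1.54 ± 0.46 SE, edgeR adjusted p = 0.905). Both had groups that did not overlap. Without dog 2 sample 0, PPP1R3C passed with a log2 fold change of 3.03 (edgeR adjusted p = 0.00203), and without dog 2 it passed at 2.98 (0.0177). The other edgeR fits did not call PPP1R3C (adjusted p of 0.4497 or more).

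Of 12 MondoA targets TXNIP fell and none rose (2 lower and 4 higher at p under 0.05; 2 lower and 2 higher by DESeq2), and the median was 0.15 (0.45, -0.03 and 0.06 by dog). That median turned with the libraries, to -0.11 without dog 2 sample 1 and -0.04 without dog 2, and was 0.46 without dog 3. The members lay on both sides: 4 were higher and 4 lower in 3 of 3 dogs (33.3% each, against 10.3% and 10.8% of all genes). BHLHE40, a repressor that is also part of the clock list, stood at 115, 61.7 and 118 CPM and then 294, 201 and 133 CPM (log2 fold change 1.09 ± 0.29 SE, edgeR adjusted p = 0.725). HBP1 and KLF10, given above, lay on opposite sides.

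Among 26 genes of fatty acid use and PPAR targets none was called by edgeR, with a median of 0.08 (0.05 without dog 3 sample 0 and 0.20 without dog 4 sample 0), while 4 were lower and 1 higher at p under 0.05, and DESeq2 called 3, all lower. ANGPTL4, an inhibitor of lipoprotein lipase, stood at 6.31, 57.5 and 42.5 CPM in the basal libraries and at 3.42, 4.33 and 5.04 CPM in sample 1. Dog 2 was low at basal, and the log2 difference was -0.88 there against -3.72 and -3.07 in dogs 3 and 4 (fitted -2.65 ± 0.50 SE, edgeR adjusted p = 0.326). Without dog 2 sample 0 it passed at -3.26 (edgeR adjusted p = 0.0158), and without dog 2 at -3.40 (0.0208). The other edgeR fits did not call ANGPTL4 (adjusted p of 0.219 or more). PPARGC1A, a coactivator of mitochondrial genes, had a log2 fold change of 0.58 (95% confidence interval 0.07 to 1.10) and was not called. In dog 2 it hardly differed, at 38.2 CPM in sample 0 and 38.5 CPM in sample 1 when scaled with all 13 libraries. The 25 nuclear genes of oxidative phosphorylation lay between -0.20 and 0.18 with a median of 0.00, and 0 were called by either tool or had p under 0.05.

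Of 19 genes of lipid synthesis none was called by edgeR (5 higher and 1 lower at p under 0.05) and 1, MID1IP1, by DESeq2, and the median was 0.21 (0.54, -0.12 and -0.06 in dogs 2, 3 and 4). That median was -0.12 without dog 2, 0.80 without dog 3 and 0.40 without dog 4. MID1IP1, which promotes the assembly of acetyl-CoA carboxylase, stood at 19.4, 9.50 and 8.87 CPM and then 28.2, 25.7 and 25.3 CPM (log2 fold change 1.13 ± 0.23 SE, edgeR adjusted p = 0.326). SREBF1, the insulin-responsive regulator of lipid synthesis, stood at 3.36, 2.41 and 3.98 CPM and then 5.49, 3.15 and 8.09 CPM (0.74, 95% confidence interval 0.06 to 1.41). The 20 genes of cholesterol synthesis had a median of 0.03, with 0 called by either tool and 0 at p under 0.05.

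**Figure D4:**
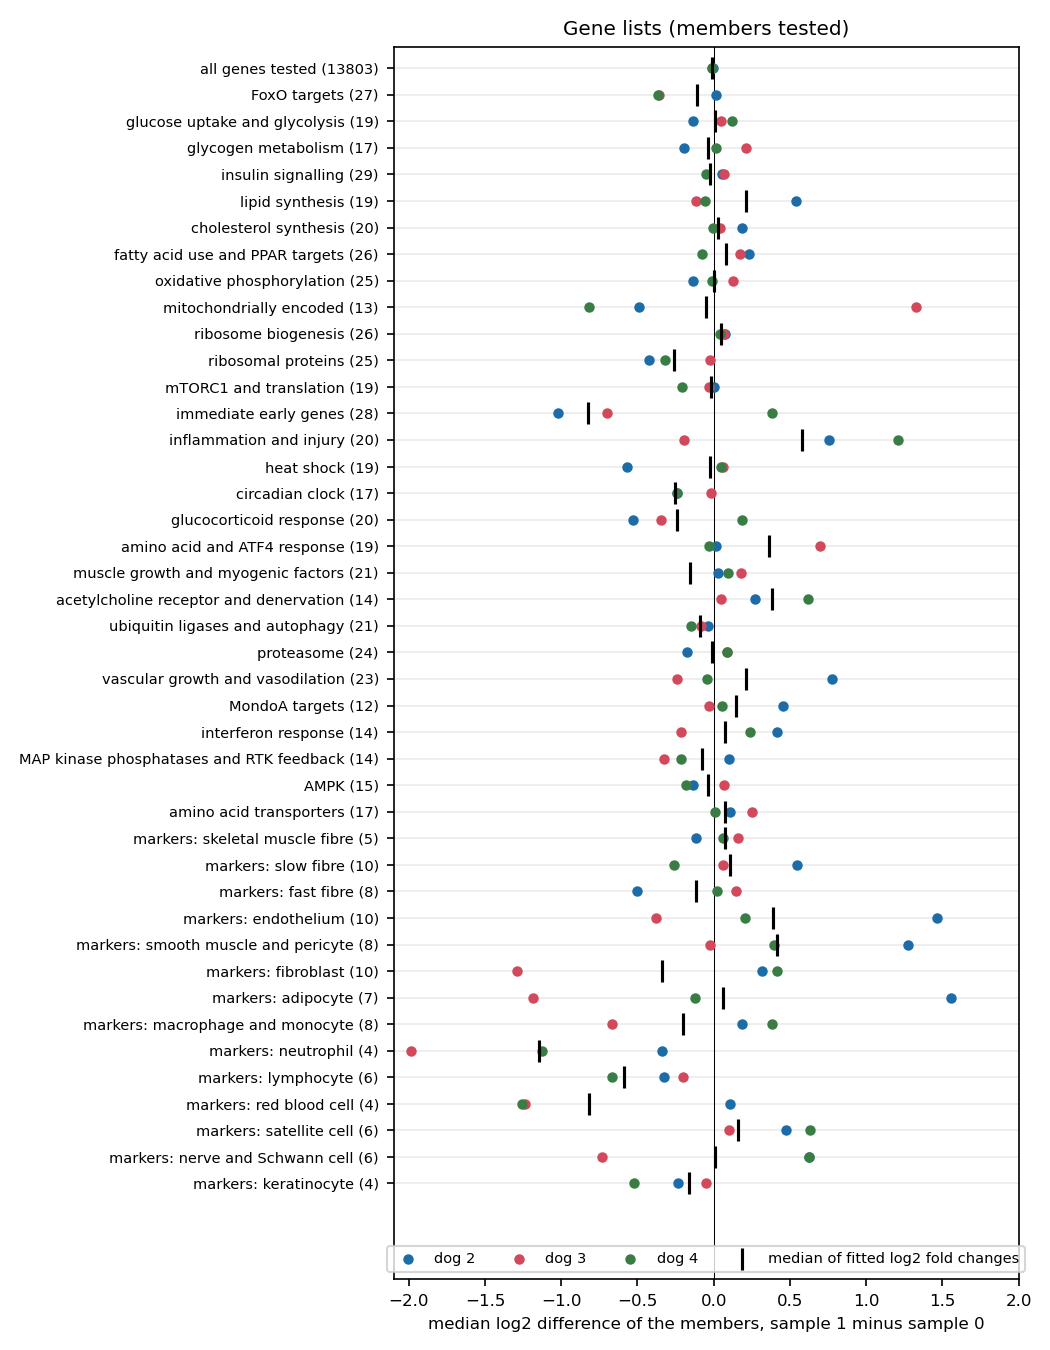
Median log2 difference of the members tested of each gene list in dogs 2, 3 and 4 (coloured points) and median of the fitted log2 fold changes (black bars), sample 1 minus sample 0. For FoxO targets, insulin signalling and glycolysis the bars lie within 0.11 of 0, and the points of the immediate early genes, mitochondrially encoded genes and several marker lists lie on both sides of 0.

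The 28 immediate early genes, which respond to growth factors and injury within minutes to hours, had a median of -0.82, but by dog it was -1.02, -0.70 and 0.38, and without dog 2 it was -0.12. None was called by edgeR (10 lower and 2 higher at p under 0.05), and DESeq2 called KLF10 and NR4A2. NR4A2, an orphan nuclear receptor, stood at 10.6, 4.86 and 3.84 CPM in the basal libraries and at 1.42, 0.438 and 0.318 CPM in sample 1, with no overlap (log2 fold change -3.40 ± 0.62 SE, edgeR adjusted p = 0.287). It passed with the 6 libraries alone (-3.26, edgeR adjusted p = 0.0389), but in no other edgeR fit (adjusted p 0.0672 to 0.9999). The 20 genes of inflammation and injury had a median of 0.58 (0.75, -0.20 and 1.21 by dog), with 0 called by either tool and 1 higher at p under 0.05. That median was 0.14 without dog 4 sample 0 and 0.27 without dog 4. Among 19 heat shock genes edgeR called none (2 lower at p under 0.05) and DESeq2 called DNAJB4. This gene, a cofactor of the chaperone HSC70, stood at 311, 93.2 and 123 CPM and then 47.2, 52.9 and 51.3 CPM (-1.61 ± 0.34 SE, edgeR adjusted p = 0.465). Its sample 1 levels were nearly equal, and its basal level was highest in dog 2.

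All 25 ribosomal protein genes had a fitted log2 fold change below 0, from -0.47 to -0.11, and 17 (68%, against 10.8% of all genes tested) were lower in 3 of 3 dogs. The median was -0.26, and by dog it was -0.43 in dog 2 and -0.32 in dog 4 but -0.02 in dog 3. None of the genes was called by either tool (2 lower at p under 0.05), and they share the same libraries. Under the other settings and with libraries left out the median lay between -0.39 and -0.15. These genes have many near-identical pseudogenes, so their counts are uncertain. The 26 genes of ribosome biogenesis had a median of 0.05, with 0 called by either tool and 1 higher at p under 0.05. The 13 mitochondrially encoded genes lay on 1 side of 0 within each dog, lower in dogs 2 and 4 and higher in dog 3, and 0 were called by either tool or had p under 0.05. Their medians were -0.49, 1.33 and -0.82 in dogs 2, 3 and 4, and their fitted median was -0.05 (-0.67 without dog 3 and 0.45 without dog 4 sample 0).

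Of 17 clock genes none was called by edgeR (5 lower and 2 higher at p under 0.05) and BHLHE40 by DESeq2, with a median of -0.25 (-0.24, -0.02 and -0.24 by dog). Without dog 2 sample 0 that median was -0.08, and without dog 2 it was -0.12. Of the 17, 5 were higher (29.4%, against 10.3% of all genes) and 7 lower (41.2%, against 10.8%) in 3 of 3 dogs. NR1D2, a repressor of the clock, stood at 46.7, 18.9 and 41.6 CPM and then 25.0, 14.8 and 15.6 CPM (log2 fold change -0.93 ± 0.27 SE, edgeR adjusted p = 0.808). The hours at which the biopsies were taken were not given in the labels. Of 21 muscle growth and myogenic factors none was called by edgeR (2 higher at p under 0.05), and DESeq2 called MYOD1 and MYOG. MYOG, which acts after MYOD1 in muscle differentiation, stood at 3.98, 3.03 and 3.21 CPM and then 4.54, 14.6 and 10.3 CPM (1.33 ± 0.40 SE, edgeR adjusted p = 0.875). PAX7, the marker of satellite cells, stood at 1.17, 1.94 and 1.93 CPM and then 2.56, 4.00 and 3.04 CPM (0.96 ± 0.29 SE, edgeR adjusted p = 0.862). The 6 satellite cell markers summed to 38.3, 36.95 and 32.4 CPM in sample 0 of dogs 2, 3 and 4. In sample 1 they summed to 35.1, 36.94 and 48.5 CPM, higher in dog 4 only. All were detected, and the fitted log2 fold change was above 0 in 4 and below 0 in 2. Their part in the values of MYOD1 and MYOG was not tested. Of 23 genes of vascular growth and vasodilation none was called by edgeR (5 higher at p under 0.05), and DESeq2 called NPPC and VEGFA. VEGFA, the main growth factor of endothelium, stood at 98.1, 57.4 and 60.6 CPM and then 201, 188 and 86.6 CPM (1.10 ± 0.24 SE, edgeR adjusted p = 0.465).

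Of the summed markers of other cell types, those of neutrophils and lymphocytes were lower, and those of smooth muscle and pericytes higher, in sample 1 of each of the 3 dogs. The sums of the remaining cell types did not keep 1 direction over the dogs. The neutrophil and lymphocyte sums were each mostly 1 gene. The 10 endothelial markers summed to 130 to 454 CPM in sample 0 and to 232 to 391 CPM in sample 1, with medians of 1.46, -0.38 and 0.21 on the log2 scale in dogs 2, 3 and 4. The 8 smooth muscle and pericyte markers summed to 114, 230.1 and 102 CPM in sample 0 of dogs 2, 3 and 4 and to 206, 258 and 149.5 CPM in sample 1, higher in each dog. The median log2 difference of these 8 was 1.27, -0.02 and 0.39 by dog. In 3 of 3 dogs 3 of them were higher (37.5%, against 10.3% of all genes). The 7 adipocyte markers summed to 248 to 725 and 289 to 658 CPM. The 10 macrophage and monocyte markers summed to 27.8 to 80.2 CPM in sample 0 and 36.2 to 44.3 CPM in sample 1. All of these markers were detected. The 7 neutrophil markers summed to 40.7, 73.7 and 30.7 CPM in sample 0 and to 31.6, 25.9 and 24.0 CPM in sample 1, lower in each dog, with CAMP at 0 in all 6 libraries. The 4 of them that were tested had a median log2 fold change of -1.15, the farthest from 0 of the 42 lists (-0.34, -1.99 and -1.13 by dog; -0.56 without dog 3), and 3 were lower in 3 of 3 dogs, against 10.8% of all genes. Most of the neutrophil sum was S100A8, at 37.8, 66.8 and 24.1 CPM and then 29.0, 24.7 and 21.25 CPM on the scale of the sums. The 9 lymphocyte markers summed to 115, 91.7 and 92.2 CPM and then 84.2, 87.8 and 62.1 CPM, with MS4A1 at 0. Every sample 1 library was below every basal one in that sum. Most of the lymphocyte sum was CD79A, at 113.5, 88.1 and 90.2 CPM and then 82.5, 86.0 and 61.0 CPM on the scale of the sums. Of the 6 lymphocyte markers tested, 2 were lower in 3 of 3 dogs (33.3%, against 10.8% of all genes). The fitted log2 fold change was below 0 in 5 and above 0 in 1. The 6 red cell markers summed to 34.7 to 45.7 CPM in sample 0 and 35.8 to 40.3 CPM in sample 1, and most of the sum was GYPC. The 4 red cell markers tested had a median log2 fold change of -0.82 (0.11, -1.24 and -1.26 by dog). Of these, 2 had a fitted value above 0 and 2 below 0, 1 of the lower ones at an unadjusted edgeR p under 0.05. The slow fibre markers summed to 22142 CPM in dog 2 sample 0 and 37096 CPM in dog 2 sample 1, and to between 39593 and 57784 CPM in the samples 0 and 1 of dogs 3 and 4. The fast fibre markers in dog 2 summed to 117237 and 89522 CPM. None of these markers was called by edgeR or DESeq2, and their part in the changes of the 5 called genes was not tested.

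Sample 2 of the same dogs was set beside sample 1. Both are measured against the same basal libraries, so their values are not independent. Against sample 0, sample 2 also had 5 called genes (0.0362%). TRIM63 stood at 51.2, 33.5 and 46.4 CPM in sample 2 (log2 fold change against sample 0 of -2.06, edgeR adjusted p = 0.00807), and TXNIP at 119, 172 and 108 CPM (-1.80, adjusted p = 0.00807). ZFAND5 had a log2 fold change of -1.32, SLC25A25 of 2.05 and SLC35E4 of 2.02 in sample 2 (edgeR adjusted p = 0.0119, 0.0192 and 0.0183). PDK4 stood at 31.6, 265 and 188 CPM in sample 2 (-3.92, edgeR adjusted p = 0.103), below its sample 1 level in each dog.

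The direct test of sample 2 against sample 1 called no gene (0%). In that comparison edgeR gave an unadjusted p under 0.05 for 254 genes and DESeq2 called none. For KLF10 the log2 fold change was 1.17 in sample 1 and 0.78 in sample 2, and for NOS1 1.45 and 1.86; neither difference between samples passed the test. A difference between samples 1 and 2 was not detectable with this spread, which does not show that they were alike.

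**Figure D5:**
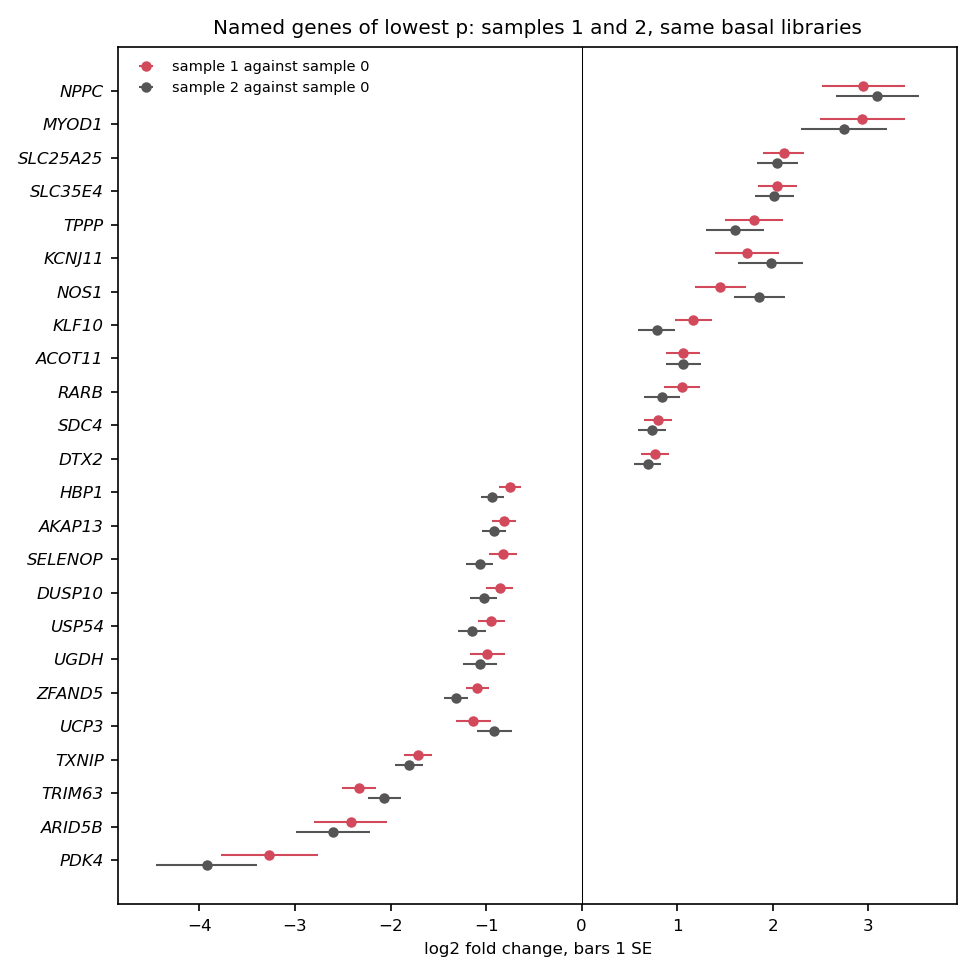
Fitted log2 fold change of the 24 named genes of lowest p in sample 1 (red) and sample 2 (grey) against the same basal libraries, with bars of 1 SE. All genes lie on the same side of 0 in both; the genes were chosen for their values in sample 1, and the shared basal libraries move both points together.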

How the data were processed

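RNA sequencing was analysed in the 3 sample 0 and 3 sample 1 libraries of dogs 2, 3 and 4, with their 3 sample 2 libraries in the same fit. The authors deposited raw counts, whole numbers for each Ensembl gene, from libraries made with a SMART-Seq v4 kit and Nextera XT per the labels' protocols. The 13 normalized columns were not used. Bowtie 0.12.2 and CanFam3.1 are named in the submitters' processing notes, with no role stated. The counting program, annotation and strand setting are not given in the sources used here, so reads of overlapping or antisense genes cannot be told apart. The series' design text describes another kind of sample and was not used.

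Counts were filtered with filterByExpr, scaled by TMM and fitted in R 4.3.3 with edgeR 4.0.16 (robust quasi-likelihood; dog as a block). Levels are TMM-scaled CPM of the 9 libraries in the fit, and the marker sums are scaled with all 13 libraries. The log2 differences by dog use a prior count of 2, and each SE is the absolute log2 fold change over the root of F. The pairing comes from the dog named in the labels. Deviations from group means correlated at a median r of 0.300 (0.0141 to 0.511) over 9 same-dog pairs of libraries and -0.143 (-0.410 to 0.307) over 18 pairs of different dogs. Deviations from a mean of 3 dogs sum to 0, which pushes the values of different dogs below 0 when same-dog values lie above it. The 2 medians are therefore not independent. Chi-square per gene between libraries of a group or dog was 51.7 to 342, far above counting error, so no library was a repeat of another. Each dog gave 1 biopsy per sample number, so the 3 dogs are the replicates. With the dog as a block, p-values rest on the spread left once each dog's own level is removed, over samples 0, 1 and 2. The estimate of that spread also borrows from the other genes.

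The naming rule took up to 12 genes per direction past the threshold or, failing that, of lowest p, each with a symbol, an average log2 CPM of at least 1 and the same direction in 3 of 3 dogs. To these were added, per list, up to 2 members with the lowest p and an average log2 CPM of at least 0, and 16 genes named whatever their result. The members, lists and comparisons were chosen with earlier results of these data known. The 42 lists held 717 distinct symbols, of which 656 were in the table. Alternatives were 6 or 13 libraries, DESeq2 size factors, no filter, DESeq2 1.42.0, no replicate block, and leaving out each dog or library. The scripts were tested on simulated data.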

Additional observations from a re-analysis of the deposited data

Results flagged for a closer look

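In the 4 sample 1 libraries (dogs 1 to 4, scaled with all 13), 1 library lay far from the other 3 in 8 of 104 measures checked, by Dixon's ratio of gap to range; chance gives about 1 in 20. The basal group of 3 was too small for this check. Dog 2 was the far library in 3 genes: TRIM63 at 56.9 CPM (others 26.2 to 29.2), DUSP10 at 57.7 CPM (others 9.95 to 16.4) and NR1D2 at 24.7 CPM (others 14.7 to 16.2). Dog 1, which has no basal library and is in none of the pairs, was far in 4: MYOD1 at 5.62 CPM (others 13.2 to 14.6), DNAJB4 at 82.8 CPM (others 46.7 to 52.3), the smooth muscle gene CNN1 at 0.425 CPM (others 1.62 to 1.75) and the macrophage receptor MRC1 at 10.6 CPM (others 2.45 to 2.94). Dog 4 was far in DSP, a desmosome gene of keratinocytes, at 17.3 CPM (others 3.38 to 4.42).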

How the results depend on the processing

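With only 3 dogs in the paired comparison, counts of called genes were unstable. For sample 1 against sample 0 (5 called), the 6 libraries alone gave 6 and DESeq2 size factors 5, whereas all 13 libraries gave 0, no replicate block 0 (324 genes at an unadjusted p under 0.05 in edgeR), no filter on low counts 30 and DESeq2 71, all 5 among them. Leaving out 1 dog or library gave 0 to 17 (17 without dog 2 sample 0, 0 without dog 3 sample 1). For sample 2 against sample 0 (5 called), 13 libraries gave 7, DESeq2 size factors 5, no filter 72, DESeq2 127 and no replicate block 0, and leaving out 1 dog or library 0 to 23. For sample 2 against sample 1, 0 genes were called in every fit run. The 6 libraries alone called MYOD1 and NR4A2 in addition and lost ZFAND5. Of the named genes, 16 changed sign in at least 1 fit, and none of these had been called. Their log2 fold changes with 1 dog or library left out ran from -0.41 to 0.0068 for CYP51A1, -1.49 to 0.34 for MT-CO1, -0.72 to 0.37 for MT-ATP8, -0.076 to 0.66 for MYH7, -0.28 to 0.038 for TNNI2, -0.36 to 0.065 for MYL1, -0.82 to 0.13 for MFAP5, -1.21 to 0.23 for DCN, -0.11 to 0.51 for LPL, -1.14 to 0.10 for FABP4, -0.72 to 0.11 for NCAM1, -0.047 to 0.35 for TTN, -0.11 to 0.22 for GYPC, -0.29 to 0.12 for DSP, -0.17 to 0.27 for INSR and -0.031 to 0.14 for ACTA1. With all 13 libraries MT-ATP8 stood at 0.024 and ACTA1 at -0.023. The cause was not tested.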
